A study of Arabidopsis thaliana with 28 samples.

Results

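Cytochromes P450 are haem enzymes that insert an oxygen atom into small molecules, and in plants most of them sit on the endoplasmic reticulum and draw electrons from a P450 reductase. They are named by sequence: a family number, a subfamily letter and a member number. Arabidopsis uses them to make and break down hormones, lignin precursors, sterols, cutin and suberin, and defence compounds such as glucosinolates and camalexin, the last made by a CYP71B enzyme, and in roots many of them act in one cell layer or zone.

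The P450 members described here are the probe sets that the array's annotation pairs with exactly 1 gene, and whose symbol or synonym is CYP followed by a family number, a subfamily letter and a number. There were 23 such probe sets for 23 genes, among 22746 probe sets tested and 13513 paired with 1 gene. A RefSeq gene table (assembly TAIR10.1), used for names and gene order alone, holds 251 genes named by the same pattern, so the 23 are a small and uneven sample of the P450s. Subfamily CYP71B gave 19 of them, and CYP51G, CYP78A, CYP79A and CYP84A gave 1 each. RefSeq lists CYP71B27 and CYP51G2 as transcribed pseudogenes and the other 21 as protein coding, among them CYP71B30P, whose final letter marks a pseudogene in P450 naming. Left out were CYP718, whose name has no subfamily letter, and 2 probe sets shared by several genes. Those were of CYP71B19 with CYP71B20, and of CYP79C2 with a neighbouring locus. Genes annotated as CYP71 and CYP59, names with neither a letter nor a member number, were not taken as P450s.

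The data are Affymetrix ATH1 arrays of root tips of Arabidopsis thaliana, wild-type accession Columbia-0, from seedlings about 5 days old. Seedlings were moved to MS medium with 1 mM hydrogen peroxide (H2O2) and sampled at 1, 3 and 6 h. Control roots on MS medium without it were sampled at 1, 3 and 6 h. Roots sampled at 0 h, whose titles name no medium, were counted with the controls. Root tips were cut by hand into elongation zone and meristematic zone, so each zone is a mixture of all its cell layers. The 14 groups hold 2 biological replicates each, 28 arrays in all, and each replicate pooled 30 roots. In bulk tissue of this kind, fewer cells of a type and less RNA per cell cannot be told apart.

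The median signal of an array ranged from 49.3 to 76.1, signals under 16 made up 24.5% to 31.1% of an array, and replicate arrays correlated across genes with r of 0.9649 to 0.9867. Precision is limited by the number of arrays, and each p-value measures the spread within pairs of replicates. Of 9 meristem markers listed, 3 were measured (BBM, AUR1, AUR2) and all were lower in the elongation zone on control medium. Of 6 elongation markers, 5 were measured and all were higher there. The summed signal of the measured meristem markers ranged from 174 to 358 on the 8 elongation zone control arrays and from 967 to 1900 on the 8 meristematic ones. That of the elongation markers ranged from 6890 to 16500 on the elongation zone arrays and from 153 to 305 on the meristematic ones. Both measured root hair markers of 4 listed were also higher in the elongation zone, with summed signals of 49.3 to 152 there against 21 to 51.1, and their part in the results was not tested. No measured marker list covered root cap, endodermis, vascular or shoot cells.

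Most P450 members gave little signal in either zone. Of the 23, 14 (60.9%) had a mean signal under 16 over all arrays, against 27.4% of all probe sets, and 4 (17.4%) had a mean of at least 50, against 55.8% of all probe sets. CYP71B6, CYP51G2, CYP71B26 and CYP84A4 stayed at or above 16 on all 28 arrays. CYP79A2, CYP71B5 and CYP71B37 stayed under 16 on all of them, and the other 16 crossed that value. CYP79A2, which turns phenylalanine into an aldoxime for benzylglucosinolate, lay between 0.646 and 14.6. The file holds no detection calls, so a low signal is not shown to be absence, and signals of different probe sets do not rank the transcripts by abundance.

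**Figure D1:**
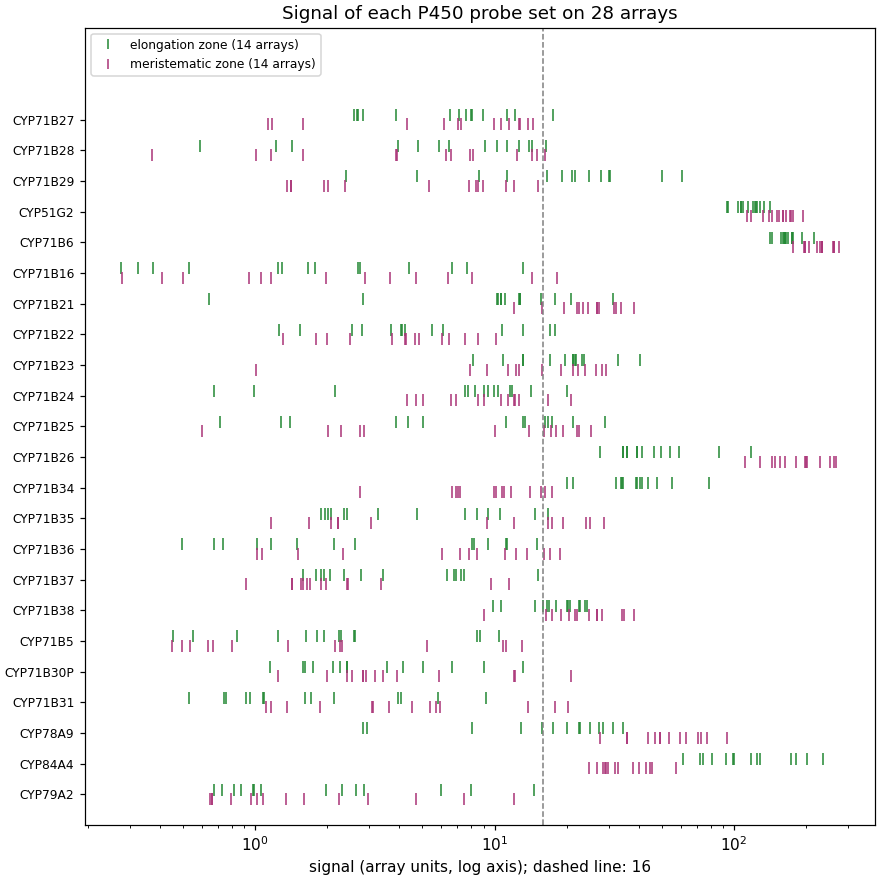
Signal of each of the 23 P450 probe sets (rows, in genome order) on 14 elongation zone and 14 meristematic zone arrays, on a logarithmic axis in array units; each tick is 1 array and the dashed line marks 16. CYP51G2, CYP71B6, CYP71B26 and CYP84A4 lie wholly to the right of the line, and most CYP71B rows lie mainly to its left.

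The first comparison asked which P450s distinguished elongating from dividing tissue. On control medium CYP84A4, CYP71B34 and CYP71B29 were higher in the elongation zone, and CYP71B26, CYP78A9, CYP71B6, CYP71B35, CYP71B21 and CYP51G2 were lower. These 9 of 23 members (39.1%) were called by limma at a Benjamini-Hochberg adjusted p under 0.05 over all probe sets, where 58.3% of all probe sets were called. The share higher was 3 of 23, against 26% of all probe sets, and the share lower 6 of 23, against 32.3%. The median log2 fold change was -0.07 over the members and -0.02 over all probe sets. All zone fold changes are differences of log2(signal + 16), elongation minus meristematic zone, which understate the change of dim probe sets. The share of all probe sets without overlap between zones was not computed on either medium. Lack of overlap, where given below, is therefore not shown to be particular to a member.

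CYP84A4 belongs to the family of ferulate 5-hydroxylase and is known for a branch of phenylpropanoid metabolism that leads to arabidopyrones. On control medium its signal had a lowest, median and highest value of 71.8, 99.5 and 182 in the elongation zone, against 26.7, 36.5 and 57.1 in the meristematic zone (8 arrays each). No elongation zone array overlapped a meristematic one. The elongation zone averaged 108.7 ± 34.6 and the meristematic zone 37.9 ± 10.5 (SD, n = 8 each), a log2 fold change of 1.19 ± 0.14 (SE, adjusted p = 2.06e-07 by limma), or 2.29-fold higher. The difference was positive at each of the 4 control times and the 3 H2O2 times, between 0.88 and 2.40.

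Partner genes of phenylpropanoid metabolism could be read beside it. HCT, a hydroxycinnamoyl transferase of lignin synthesis, was higher in the elongation zone by 0.32 ± 0.08 (adjusted p = 0.00259 by limma), with means of 354 ± 75.1 there, against 276 ± 25.2 in the meristematic zone (SD, n = 8 each). F6'H1, the hydroxylase that leads to the coumarin scopoletin, was higher by 1.70 ± 0.24 (adjusted p = 2.31e-06), with means of 83.6 ± 42.3 there, against 14.6 ± 13.0 in the meristematic zone. They were the 2 measured of 15 listed partners of this pathway.

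CYP71B26 had the widest zone difference among the 23 with the deposited scaling, whereas CYP84A4 had the wider one on control medium after quantile normalization (1.38, against -1.26 for CYP71B26) and after median centring (1.47, against -1.18). Its signal had a lowest, median and highest value of 27.6, 40.3 and 118 in the elongation zone, against 111, 159 and 268 in the meristematic zone of control roots. Only the 0 h elongation array at 118 reached the range of the meristematic arrays. The elongation zone averaged 55.3 ± 31.7 and the meristematic zone 171 ± 50.4 (SD, n = 8 each), a log2 fold change of -1.45 ± 0.13 (adjusted p = 3.07e-09 by limma), or 2.74-fold lower in the elongation zone.

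CYP71B34 went the other way. It read 20, 36.7 and 55.2 (lowest, median, highest) in the elongation zone, against 6.64, 10.8 and 16.2 in the meristematic zone on control medium, without overlap. Its log2 fold change was 0.92 ± 0.16 (adjusted p = 3.65e-05), and over all 28 arrays it reached 16 on 14 of 14 elongation zone arrays and 2 of 14 meristematic ones. CYP71B26 and CYP71B34 lie close together in the genome, with 1 annotated gene, CYP71B33, between them.

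CYP78A9 belongs to a subfamily known for promoting organ growth, in this case of fruits and seeds. Its signal was 2.94, 22.6 and 34.4 (lowest, median, highest) in the elongation zone, against 27.5, 47.9 and 72.6 in the meristematic zone on control medium. The ranges overlapped between 27.5 and 34.4. The log2 fold change was -0.77 ± 0.16 (adjusted p = 2.45e-04 by limma), and it was negative at all 7 combinations of medium and time, between -2.01 and -0.25.

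CYP71B6, known to act on indole-3-acetonitrile in indole defence metabolism, read 142, 164 and 177 (lowest, median, highest) in the elongation zone, against 199, 231 and 276 in the meristematic zone of control roots. The ranges did not overlap, with a log2 fold change of -0.50 ± 0.07 (adjusted p = 4.6e-06). CYP51G2, a pseudogene relative of the sterol demethylase gene CYP51G1, read 104, 124 and 142 in the elongation zone, against 113, 158 and 194 in the meristematic zone. Those ranges overlapped, and its fold change was -0.30 ± 0.09 (adjusted p = 0.00582). Whether the probes of CYP51G2 also bind CYP51G1 transcript was not tested.

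Among the dim members, CYP71B29 was higher in the elongation zone by 0.67 ± 0.20 (adjusted p = 0.00682), with signals of 2.39 to 60.8 there and 1.41 to 15.2 in the meristematic zone. Without the 1 h groups its value was 0.43 (adjusted p = 0.133). CYP71B35 was lower there, with a log2 fold change of -0.50 ± 0.16 (adjusted p = 0.0132), and CYP71B21 was at -0.45 ± 0.15 (adjusted p = 0.0161). CYP71B21 was not called when 1 of 3 arrays was left out, with an adjusted p of 0.0559 without replicate 2 of the elongation zone at 0 h, 0.0592 without replicate 2 of that zone at 6 h, and 0.0519 without replicate 2 of the meristematic zone at 6 h. The 14 members not called lay between -0.22 and 0.18 on the log2 scale. Among them were CYP71B38, with signals of 9.04 to 38.1 over all arrays and a zone difference of -0.12 (adjusted p = 0.491), and CYP71B31, which oxidises linalool in flowers (-0.18, adjusted p = 0.355).

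**Figure D2:**
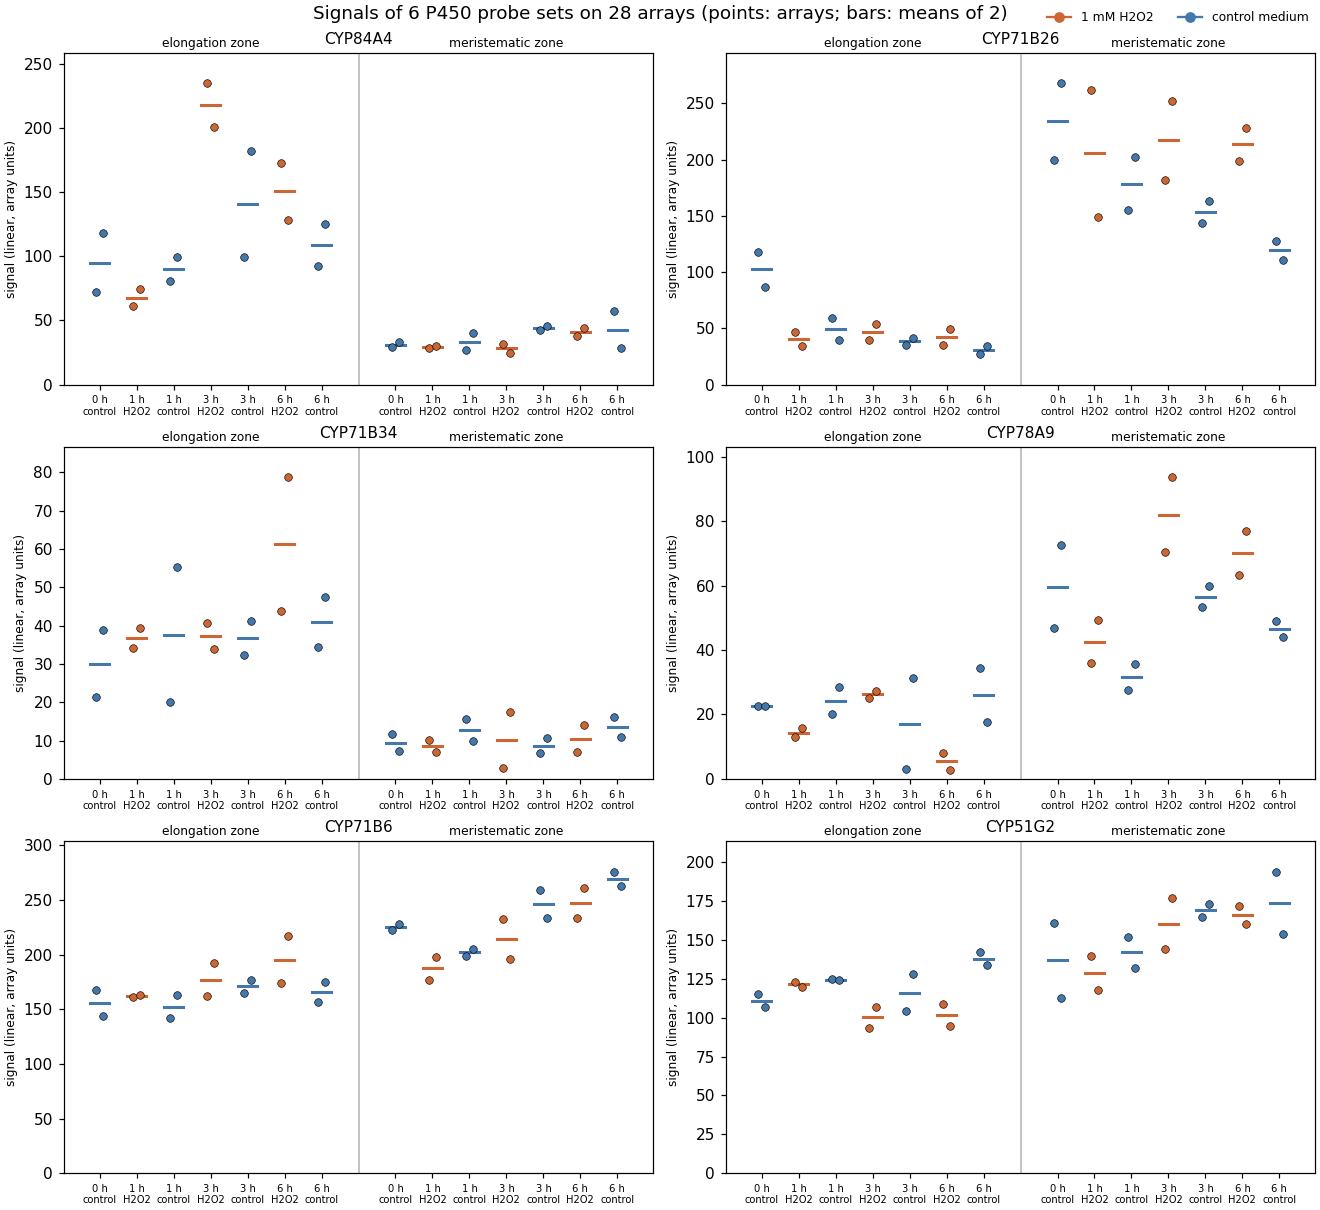
Linear signal of 6 P450 probe sets in each zone by time, with 1 mM H2O2 left of control medium at 1, 3 and 6 h; points are arrays and bars are means of 2. CYP84A4 and CYP71B34 lie higher in the elongation zone, CYP71B26 and CYP78A9 on most arrays higher in the meristematic zone, and CYP71B26 on control medium is lower at 6 h than at 0 h in both zones.

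The zones were compared again among H2O2 roots, whose group means came from arrays other than the control ones. Both comparisons took their residual variance from the same model over all arrays, so their calls are not fully independent. On H2O2 8 of 23 members (34.8%) were called, 3 higher and 5 lower in the elongation zone. Of all probe sets 56.5% were called, 23.6% higher and 32.9% lower. All 8 members were among the 9 called on control medium, with the same sign. The share of all probe sets called on both media was not computed, so this agreement is not shown to be particular to the members. CYP84A4 was higher by 1.61 ± 0.16 (adjusted p = 2.6e-08), with signals of 61.3, 150 and 235 (lowest, median, highest) in the elongation zone, against 24.7, 30.9 and 44.4 in the meristematic zone (6 arrays each, no overlap). CYP71B26 was at -1.93 ± 0.15 (adjusted p = 4.83e-10), with 34.5, 42.8 and 53.9 in the elongation zone, against 149, 214 and 262 in the meristematic zone, again without overlap.

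CYP71B34 (1.24 ± 0.19, adjusted p = 6.29e-06) and CYP78A9 (-1.39 ± 0.18, adjusted p = 1.16e-06) did not overlap between zones on H2O2 either. CYP71B29 (0.84 ± 0.23, SE), CYP71B21 (-0.68 ± 0.18), CYP51G2 (-0.43 ± 0.10) and CYP71B6 (-0.26 ± 0.09) were called as well, with ranges that overlapped. CYP71B6 on H2O2 was not called without replicate 1 of the elongation zone at 3 h (adjusted p = 0.0513) or 6 h (adjusted p = 0.0603), or of the meristematic zone at 3 h (adjusted p = 0.0514). CYP71B35 was at 0.05 ± 0.19 and was not called (adjusted p = 0.85). Over all 23 members the sign was the same on both media for 15.

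**Figure D3:**
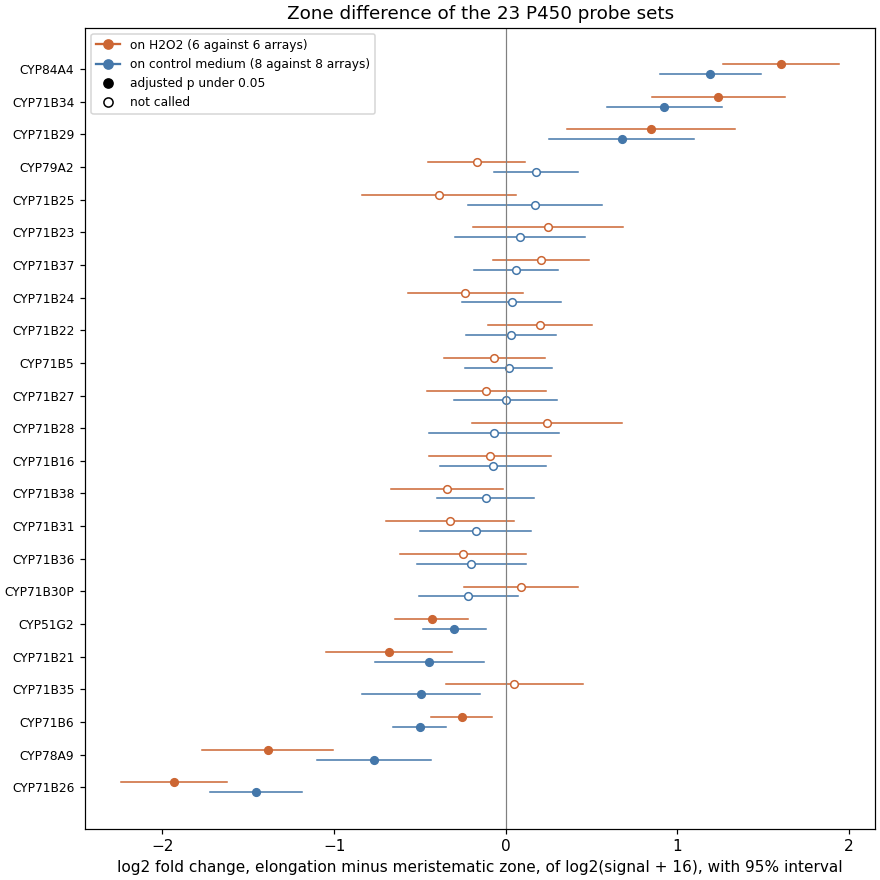
Log2 fold change of each P450 probe set, elongation minus meristematic zone, on the log2(signal + 16) scale with 95% intervals, on H2O2 (6 against 6 arrays) and on control medium (8 against 8 arrays); filled points have an adjusted p under 0.05. Called members run between -1.93 for CYP71B26 and 1.61 for CYP84A4, both on H2O2, and the intervals of most uncalled members cross 0.

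Zone calls of small size depended on how arrays were scaled. With each array shifted to a common median, the array-wide median of the zone difference became 0.28 on H2O2, against -0.07 as deposited, and 0.26 on control medium, against -0.02. The calls then comprised 8 higher and 2 lower members on H2O2, and 9 higher and 3 lower on control medium. Over the array, 10098 probe sets were then higher and 5232 lower on H2O2, against 5367 and 7475 as deposited, and 10595 were higher and 5559 lower on control medium, against 5910 and 7349. CYP84A4 (1.47), CYP71B34 (1.20), CYP71B29 (0.95), CYP71B26 (-1.18), CYP78A9 (-0.49) and CYP71B6 (-0.22) remained called on control medium, whereas CYP51G2 (-0.02), CYP71B21 (-0.17) and CYP71B35 (-0.22) were not. On H2O2 CYP71B6 changed sign to 0.09 (adjusted p = 0.391), and CYP51G2 (-0.09) and CYP71B21 (-0.34) were not called. After quantile normalization CYP51G2 was not called on either medium (-0.16 on H2O2, -0.08 on control medium), nor was CYP71B6 on H2O2 (-0.07). RNA quality, read as the log2 ratio between 3′ and 5′ probe sets for GAPDH, moved with the zone as well: control roots gave 0.03 ± 0.22 for elongation and 0.43 ± 0.18 for meristematic zones (SD, n = 8 each). Its part in these results was not tested.

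The CYP71B genes of chromosome 3 allowed a look at neighbours. Of the members, 11 lie in 1 stretch of 25 annotated genes, 18 of which have P450 names, from CYP71B16 to CYP71B37. In genome order, their zone differences on control medium were -0.08 for CYP71B16, -0.45 for CYP71B21, 0.03 for CYP71B22, 0.08 for CYP71B23, 0.03 for CYP71B24 and 0.17 for CYP71B25. They went on with -1.45 for CYP71B26, 0.92 for CYP71B34, -0.50 for CYP71B35, -0.20 for CYP71B36 and 0.06 for CYP71B37. So 4 of the 11 were called, 3 lower and 1 higher, where 58.3% of all probe sets were called, and the called CYP71B34 and CYP71B35, which lie next to each other, differed in sign. CYP71B35 was dim, however, and its ranges overlapped, with 1.89 to 16.7 in the elongation zone and 2.21 to 28.7 in the meristematic zone. On H2O2 its zone difference was 0.05 and it was not called. With median centring 6 of the 11 were called, 5 higher and 1 lower, since CYP71B21 and CYP71B35 were then not called and CYP71B22, CYP71B24, CYP71B25 and CYP71B37 were. CYP71B27, CYP71B28 and CYP71B29 on chromosome 1 gave 0.00, -0.07 and 0.67, and only CYP71B29 of the 3 was called. The run CYP71B5, CYP71B30P and CYP71B31 on chromosome 3 gave 0.02, -0.22 and -0.18, with none called by limma. Close relatives of this subfamily can bind each other's probes, so these values carry that uncertainty.

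The H2O2 comparison asked which P450s responded to the oxidant at 1, 3 and 6 h. No member was called at any time in either zone by limma. In the elongation zone 0.0308%, 0.136% and 0.0572% of all probe sets were called at 1, 3 and 6 h, and in the meristematic zone 0%, 0.0396% and 0.136%. These shares were unstable: leaving out 1 array gave 0 to 207 probe sets called in the elongation zone at 1 h, against 7 with all arrays (207 without control 1 h replicate 2), 1 to 17 at 3 h, against 31, and 2 to 18 at 6 h, against 13. In the meristematic zone it gave 0 to 2 at 1 h, against 0, 1 to 9 at 3 h, against 9, and 2 to 35 at 6 h, against 31. An unadjusted p under 0.05 was found in the elongation zone for 1, 1 and 2 of 23 members (4.35%, 4.35% and 8.7%), beside 6.69%, 5.8% and 7.83% of all probe sets. In the meristematic zone it was found for 1, 2 and 2 members (4.35%, 8.7% and 8.7%), beside 2.25%, 5.05% and 8.03%. Averaged over the 3 times, 0.506% of all probe sets were called in the elongation zone, against 0.259% in the meristematic zone, again with no member among them. Leaving out 1 array gave 63 to 377 probe sets in the elongation zone, against 115 with all arrays (377 without control 1 h replicate 2, 63 without control 6 h replicate 1), and 31 to 71 in the meristematic zone, against 59 (31 without H2O2 6 h replicate 2). An unadjusted p under 0.05 was found for 0 of 23 members in the elongation zone, beside 8.9% of all probe sets, and for 5 of 23 (21.7%) in the meristematic zone, beside 5.78%. For this mean effect the members' median log2 fold change was 0.08 in elongation zones, beside -0.03 for all probe sets, and 0.06 in meristematic zones, beside 0.00.

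The intervals say what could have been missed. For the mean effect the 95% intervals of the members reached between 0.18 and 0.49 to either side on the log2(signal + 16) scale, and at a single time between 0.31 and 0.85. On simulated arrays changes of 1 on that scale were recovered for the mean effect at a rate of 87% for the elongation zone and 84% for the meristematic zone. The rate was 42.5% for a single time (the meristematic zone at 6 h) and 54% for the difference of the mean effects between zones. The changed probe sets outnumbered those called with all arrays in any H2O2 comparison, which eases the adjustment. They were drawn from the whole array, where 27.4% had a mean signal under 16, against 60.9% of the members. A signal under 16 cannot fall by 1 on that scale. The rates are therefore not those of the members and may overstate them. For a probe set at a signal of 9.47, the median of the members' means, a signal 2 times as high is a difference of 0.46, which is less than the median half-width of the single-time intervals, 0.60.

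CYP84A4 had signals of 235 and 201 on H2O2 and 99.2 and 182 on control medium in the elongation zone at 3 h. Both H2O2 arrays lay above both control arrays, and the log2 fold change was 0.63 (95% interval 0.04 to 1.21, adjusted p = 0.829 by limma). At 6 h it read 173 and 128 on H2O2 against 92.8 and 125 (0.41 ± 0.28), and at 1 h 61.3 and 74.2 on H2O2 against 80.6 and 99.7, so the order was turned at 1 h and the groups were apart there as well (-0.34 ± 0.28). In the meristematic zone its mean effect was -0.19 ± 0.16. Groups that lie apart in this way, in either direction, were common on the array. In the elongation zone they were found for 30.4%, 33% and 41.7% of all probe sets at 1, 3 and 6 h. In the meristematic zone the shares were 25.6%, 30.8% and 41.1%. Among the members they were found for 8, 6 and 10 in the elongation zone, and for 7, 12 and 8 in the meristematic zone. Such separation, here and for the members below, does not by itself show a response.

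CYP71B26 in the meristematic zone read 199 and 228 on H2O2 and 128 and 111 on control medium at 6 h, a log2 fold change of 0.77 (95% interval 0.23 to 1.30, adjusted p = 0.371 by limma). At 3 h it read 182 and 252 against 144 and 163, and at 1 h 262 and 149 against 155 and 202. The groups were apart at 3 and 6 h and overlapped at 1 h, and the mean effect was 0.45 ± 0.15 (adjusted p = 0.478). In the elongation zone the mean effect was 0.10 ± 0.15.

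CYP78A9 in the elongation zone read 8.07 and 2.82 on H2O2 and 34.4 and 17.6 on control medium at 6 h, a log2 fold change of -0.95 (95% interval -1.61 to -0.29, adjusted p = 0.397 by limma). At 1 h it read 12.9 and 15.8 on H2O2 against 20.1 and 28.4 there (-0.40 ± 0.32), and at 3 h 25.1 and 27.3 on H2O2 against 2.94 and 31.2 (0.50 ± 0.32), with a mean effect of -0.28 ± 0.18. The H2O2 arrays of the elongation zone were below the controls at 1 and 6 h and overlapped them at 3 h. In the meristematic zone it read 35.9 and 49.2 on H2O2 against 27.5 and 35.8 at 1 h, 70.5 and 93.6 against 53.4 and 59.8 at 3 h, and 63.2 and 76.9 against 49 and 43.9 at 6 h, above the controls at each time (mean effect 0.39 ± 0.18, adjusted p = 0.86). The difference of the mean effects between zones was -0.68 ± 0.26 (adjusted p = 1), and no member was called for that difference, nor was any other probe set (0%). An unadjusted p under 0.05 was found for 2 of 23 members (8.7%), CYP78A9 and CYP71B25, beside 4.27% of all probe sets.

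The other members with an unadjusted p under 0.05 in an H2O2 comparison were dim, apart from CYP51G2 in the elongation zone at 6 h (109 and 94.8 on H2O2 against 142 and 134, a log2 fold change of -0.39 ± 0.18, adjusted p = 0.608 by limma). CYP71B35 in the meristematic zone read 1.17 and 2.21 on H2O2 against 17.3 and 16.7 at 1 h (-0.90 ± 0.33), 19.4 and 2.07 against 2.21 and 3.04 at 3 h (0.44 ± 0.33), and 1.68 and 9.28 against 28.7 and 12.1 at 6 h (-0.75 ± 0.33). The H2O2 arrays were below the controls at 1 and 6 h and overlapped them at 3 h, with a mean effect of -0.40 ± 0.19 (adjusted p = 0.86). Such separation was common among all probe sets, as given with CYP84A4. CYP71B36 in that zone read 1.07 and 7.16 on H2O2 against 8.42 and 7.85 at 1 h, 17.1 and 16.1 against 1.51 and 2.32 at 3 h, and 12.3 and 18.8 against 6.03 and 11.1 at 6 h. Its H2O2 arrays were below the controls at 1 h and above them at 3 and 6 h, with a mean effect of 0.32 ± 0.18. CYP71B25 there had a mean effect of 0.57 ± 0.22 (adjusted p = 0.647). CYP71B5 and CYP79A2 completed them, at signals of at most 14.6.

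**Figure D4:**
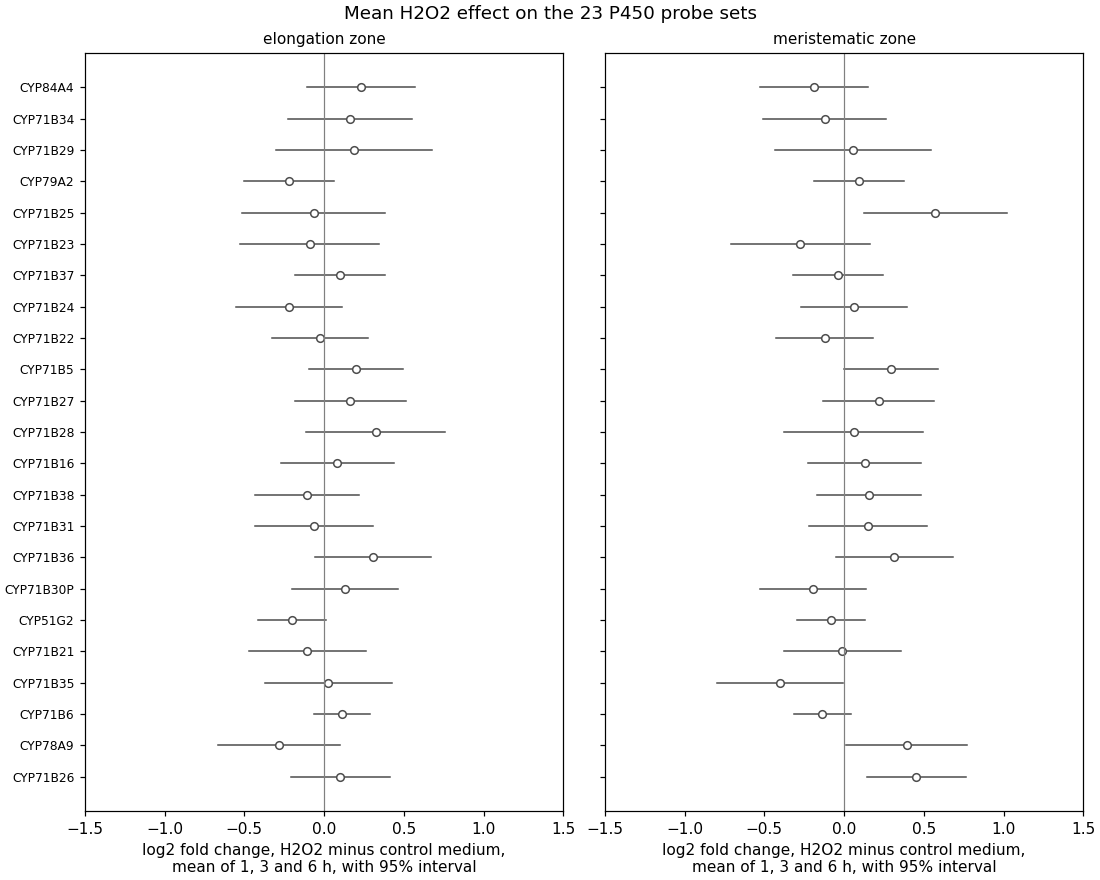
Mean H2O2 effect over 1, 3 and 6 h on each P450 probe set, H2O2 minus control medium on the log2(signal + 16) scale with 95% intervals, in the elongation zone (left) and the meristematic zone (right). No member has an adjusted p under 0.05; estimates run between -0.28 and 0.32 in the elongation zone; those of the meristematic zone run between -0.40 and 0.57.

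The control arrays alone showed how the P450s behaved over time on control medium, with 0 h as the start. Titles of the 0 h arrays name no medium. The step from 0 h to 1 h may therefore include a move to control medium, whose part was not tested. CYP71B26 in the elongation zone read 118 and 86.9 at 0 h, 59.2 and 39.3 at 1 h, 35.6 and 41.4 at 3 h, and 27.6 and 34.4 at 6 h. Both 0 h arrays lay above all 6 later ones, a separation whose share among all probe sets was not computed. The group means spanned 1.32 on the log2 scale, and the F test over the 4 times gave an adjusted p of 0.0572 by limma, just over the threshold. Without control 1 h replicate 1 it was called. In the meristematic zone CYP71B26 read 200 and 268 at 0 h, 155 and 202 at 1 h, 144 and 163 at 3 h, and 128 and 111 at 6 h, with a span of 0.87 (adjusted p = 0.47).

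No member was called for time on control medium in either zone, where 0.422% of all probe sets were called in the elongation zone, against 0.365% in the meristematic zone. Leaving out 1 array gave 43 to 887 probe sets called in the elongation zone, against 96 with all arrays (887 without control 1 h replicate 1, 43 without control 0 h replicate 1), and 36 to 97 in the meristematic zone, against 83 (36 without control 1 h replicate 2). An unadjusted p under 0.05 was found for CYP71B26 alone in the elongation zone (4.35% of the members, beside 13.6% of all probe sets), and for CYP71B35 and CYP71B26 in the meristematic zone (8.7%, beside 8.12%). The next smallest p-values were those of CYP71B29, CYP71B22, CYP71B21 and CYP79A2 in the elongation zone (adjusted p between 0.397 and 0.63) and of CYP71B6, CYP71B25 and CYP78A9 in the meristematic zone (adjusted p between 0.708 and 0.816). CYP71B6 in the meristematic zone read 223 and 228 at 0 h, 199 and 205 at 1 h, 259 and 234 at 3 h, and 276 and 263 at 6 h. The H2O2 and control comparisons of the same times share these control arrays.

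Members with a role in the pathway lists were few. Of 93 P450 names in 14 lists of hormone, phenylpropanoid, sterol, carotenoid, lipid, glucosinolate, triterpenoid, growth and detoxification genes, 3 had a probe set among the members, CYP79A2, CYP78A9 and CYP71B6. Of these, CYP78A9 and CYP71B6 were called lower in the elongation zone on both media. Over the array 32.3% of all probe sets were called lower on control medium and 32.9% on H2O2. The call of CYP71B6 on H2O2 was lost with median centring and with quantile normalization. Of 49 partner genes in 7 lists, 3 were measured. HCT and F6'H1 are described with CYP84A4, and UGT74B1, a glucosyltransferase of glucosinolate synthesis, was at -0.14 ± 0.10 between zones on control medium and was not called (adjusted p = 0.244 by limma). None of the 3 partners was called for the mean H2O2 effect in either zone, with adjusted p of at least 0.723. None of the 7 listed electron donors of P450s was paired with a probe set in the annotation used here.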

How the data were processed

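Each array came with deposited intensities on a linear scale, as a single signal for a probe set. MAS5 and GCRMA are both listed in the submitters' processing notes, with no role given. With the lowest and highest 2% set aside, each array averaged 250.0, as after MAS5 global scaling. From these deposited intensities log2(signal + 16) was computed, with no filter on dim probe sets. All 28 arrays and 22746 probe sets (64 control probe sets left out) entered 1 limma model with a mean per group (limma 3.58.1, R 4.3.3, 14 residual and 5.64 prior degrees of freedom, eBayes with an intensity trend, 2-sided). The Benjamini-Hochberg adjustment ran over the whole array, and calls were made under 0.05. In the annotation, 503 probe sets have more than 1 gene and 8730 are unlisted. Of those with 1 gene, 13436 matched a RefSeq locus.

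Members and lists were chosen with earlier results of these data known. Named members were those called for H2O2, up to 12 per direction for the zones without overlapping arrays, the 8 with the highest mean signal, 5 per zone for time, and list members. Others were named after their values were seen. Markers were 8 lists of 40 genes, 10 measured. The model was tested on simulated arrays with known changes. Alternatives were pseudocounts of 64 and 1, quantile normalization, median centring, a minimum mean signal of 50, a replicate block, no trend, only the compared arrays, and leaving out each array. Leaving out the 1 h groups and the zone difference of the H2O2 effect at single times were added after seeing the data.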

Additional observations from a re-analysis of the deposited data

How the results depend on the processing

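The number of P450 members called for H2O2 at each time in each zone, for the mean effects and for their difference between zones was 0 under the 8 other settings tried and with each array left out, and the same held for time on control medium in the meristematic zone. For time in the elongation zone 0 members were called as reported, and 1, CYP71B26, with a pseudocount of 1 (adjusted p = 0.0417), with a minimum mean signal of 50 (adjusted p = 0.0363, fewer probe sets tested) and with the replicate number as a block (1 member, adjusted p = 0.0312). Leaving out 1 array gave 0 to 1 there, the 1 being without control 1 h replicate 1. Between the zones 8 members were called on H2O2 and 9 on control medium. Leaving out 1 array gave 7 to 9 on H2O2 and 8 to 10 on control medium. With a minimum mean signal of 50, 4 were called on each medium, because the dimmer members were not tested. CYP71B6 on H2O2 reversed to 0.088 with median centring, and it was not called without H2O2 replicate 1 of the elongation zone at 3 h or 6 h, or of the meristematic zone at 3 h. The replicate block changed no other call of a member, but over all probe sets it gave 38, 67 and 54 calls for H2O2 at 1, 3 and 6 h in the elongation zone, against 7, 31 and 13, and 6, 37 and 115 in the meristematic zone, against 0, 9 and 31. Same-numbered arrays of the 6 H2O2 comparisons deviated together with r between -0.02 and 0.35, not all over 0.1, so the numbers were not taken as pairs, although r was positive for 83 of 91 pairs of groups (median 0.0992). Low signals limit what could be seen for 14 of the 23 members.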

Other observations

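The H2O2 effect in the elongation zone minus that in the meristematic zone was also taken at single times, after the values were seen. For CYP78A9 it was -0.69 ± 0.45 at 1 h, 0.07 ± 0.45 at 3 h and -1.41 ± 0.45 at 6 h on the log2 scale. For CYP84A4 it was -0.23 ± 0.40 at 1 h, 1.07 ± 0.40 at 3 h and 0.41 ± 0.40 at 6 h. Dim members reached similar sizes, with -0.85 ± 0.33 for CYP79A2 at 1 h and -1.23 ± 0.53 for CYP71B25 at 3 h. No member was called at any of these times (adjusted p of these genes at least 0.9998 by limma), and 0, 0 and 1 of all probe sets were.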
